A study of Mus musculus with 8 samples.

Results

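The genes described here encode integrins, cadherins and other cell adhesion receptors, and they were followed in cultured mouse melanocytes, the pigment cells of the skin. The 35 genes were chosen by name and matched by symbol to the array's probe sets. Of them 34 were measured, among 22180 genes in all: 18 integrin subunits, 11 cadherins, 4 adhesion receptors of the immunoglobulin superfamily (Mcam, Alcam, L1cam and Ncam1) and Cd44. Itga10 had no probe set of its own in the annotation table used and was not analysed here. A filter that asked for a group mean at or above the median of all genes in at least 1 group was passed by 30 of the 34; the dim genes were Itgb6, Itgb7, Itgb8 and Cdh10.

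Melanocytes came from pups 1 to 5 days old, were kept for 22 days in the melanocyte medium MGM-2, and carry the sex label female. KO cells were Atg7 f/f Tyr::Cre: both Atg7 alleles are floxed and the Cre recombinase is driven by the tyrosinase promoter, so that Atg7, which autophagy needs, is to be deleted in pigment cells but not in other cells of the culture. WT cells were Atg7 f/f with no Cre in their label, and count as autophagy competent in the labels. Cells were exposed to 20 J/cm² of UVA-1 (ultraviolet A of longer wavelength) or sham treated, and their RNA was isolated after 6 h. The 8 Affymetrix arrays formed 4 groups of 2, numbered 1 and 2 in the sample titles: KO UVA, KO sham, WT UVA and WT sham. The study text calls the samples biological duplicates, but whether a culture held cells of several pups is not given in the sources used here.

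Integrins are pairs of an alpha and a beta subunit that bind matrix proteins outside the cell and, through talin and kindlin, the actin cytoskeleton inside it. Cadherins bind cadherins of the neighbouring cell and are tied to actin by catenins. In skin, melanocytes sit on the laminin of the basement membrane and are held to keratinocytes largely by E-cadherin, while matrix-producing fibroblasts rely on collagen and fibronectin receptors. Changes from E-cadherin to N-cadherin, and gains of MCAM and of the beta 3 integrin, are known from melanoma.

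All values below are log2 intensities, and all differences are differences of log2 intensities. Levels are compared between arrays for 1 gene, not between genes, since probes differ in brightness. A positive KO minus WT or UVA minus sham difference means higher in KO or after UVA. Tests are limma fits over all 22180 genes in which the replicate number entered as a block, and a gene was called at an adjusted p under 0.05.

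Atg7 itself read 9.65 and 9.70 in KO of number 1 (UVA and sham) and 9.23 and 9.22 in KO of number 2, against 9.97 and 9.95 in WT of number 1 and 9.70 and 9.75 in WT of number 2. Every KO array was below every WT array, with the closest pair, KO sham of number 1 and WT UVA of number 2, at 9.70 each. The difference of -0.39 (SE 0.07) was not called (adjusted p = 0.297), and the table used does not say whether the probes lie in the deleted part of the gene. The arrays stood apart by replicate number: number 1 and number 2 fell on opposite sides of the first principal component, which carried 77.7% of the variance. No label tells what the number means. Arrays of 1 genotype and number correlated at r = 0.996 to 0.997 across genes, and the duplicates of a group at 0.962 to 0.978. Melanocyte genes were measured on every array, with Pmel at 13.35 to 13.99, Tyrp1 at 13.75 to 14.11 and Dct at 13.51 to 14.19 over the 8 arrays. Fibroblast genes were measured too, with Dcn at 13.09 to 13.15 in KO and 12.94 to 12.97 in WT of number 1, and at 12.15 to 12.23 in KO and 10.93 to 11.09 in WT of number 2. Dcn does not stand for the list: the median KO minus WT difference of 14 fibroblast markers was -0.05 in number 1 and 1.12 in number 2. Of the 14, 4 were higher in KO in all 4 matched pairs of arrays, against 7.65% of all genes. In RNA from whole cultures, fewer cells of a type and less RNA per cell cannot be told apart. RMA intensities have no true zero, so no marker can be called absent.

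**Figure D1:**
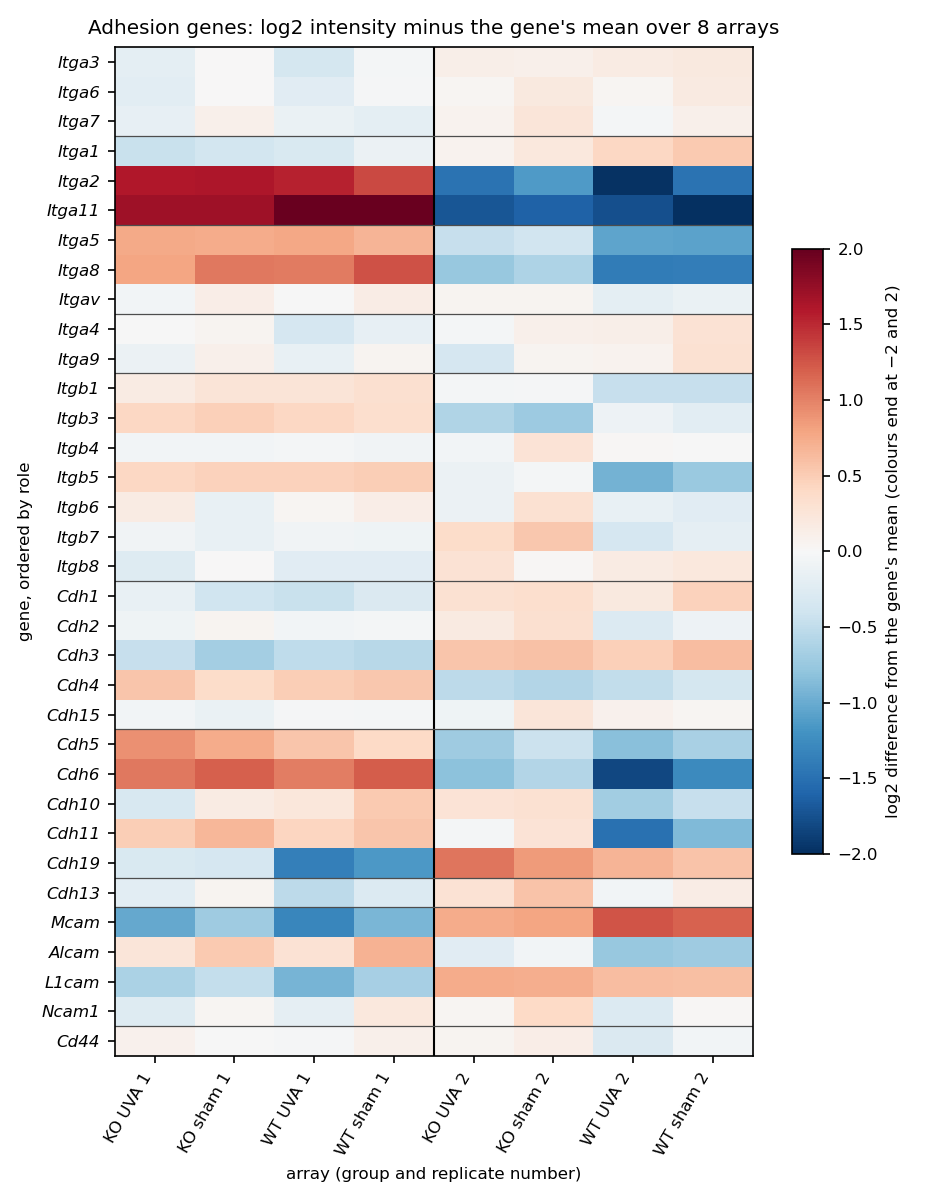
Log2 intensity of the 34 measured adhesion genes on the 8 arrays, as the difference from each gene's own mean (colour scale ending at -2 and 2, with Itga11 passing its lower end on 1 array). Columns are arrays by group and number, with a vertical line between the numbers, and horizontal lines part the roles. The largest colour changes follow the replicate number, for example in Itga2, Itga11, Cdh6 and Mcam.

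The strongest pattern among the adhesion genes was a split by replicate number. Itga2, Itga11, Itga5, Itga8, Cdh5, Cdh6 and Cdh11 were lower on the number 2 arrays, and Mcam, Cdh19, L1cam and Cdh3 were higher there. The roles did not move as one: of the 3 measured collagen-binding alpha subunits, Itga2 and Itga11 were lower in number 2 and Itga1 was higher (0.62, with no overlap of the arrays), and of the 3 RGD-binding ones, Itga5 and Itga8 were lower and Itgav differed by -0.10. Over the 4 groups, the mean difference of number 2 minus number 1 exceeded 1 for 4 of the 34 genes and was below -1 for 7, against 2.07% and 3% of all genes. Cdh3 (1.11) and Cdh11 (-1.07) were the genes nearest to these limits from within, and Cdh4 (-0.98, but 0.17 on a further, dimmer probe set) the nearest outside. The 4 arrays of number 2 lay above all 4 of number 1 for 9 adhesion genes and below them for 12, against 16.6% and 15.5% of all genes. The median share of a gene's variance over the 8 arrays that followed the number was 72.4% for the adhesion genes and 32.6% for all genes. In the partner lists described below it was 74.7% (ligands), 71.2% (catenins and junction), 56.6% (adaptors) and 52.5% (further adhesion receptors). It was 79.8% for fibroblast markers. All genes include more dim ones: 11472 of the 22180 passed the filter that 30 of the 34 passed. The part of brightness in these shares was not tested. These are descriptions without a test, since the number is not a condition of the study.

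Itga11, the alpha subunit of a receptor for fibrillar collagen that is typical of fibroblasts, differed most. On number 2 arrays Itga11 read 7.25 in KO UVA, 7.34 in KO sham, 7.21 in WT UVA and 6.71 in WT sham. On number 1 arrays it read 10.65 in KO UVA, 10.66 in KO sham, 10.94 in WT UVA and 10.93 in WT sham. The number 2 arrays were thus far below those of number 1 in every group, with a mean difference of -3.67, or 12.7-fold higher in number 1. Itga2, the alpha subunit of another collagen receptor, read 7.14 to 7.98 on number 2 arrays and 10.43 to 10.73 on number 1 arrays, a mean difference of -3.04. Cdh6, a type II cadherin, read 8.95 in KO UVA, 9.18 in KO sham, 7.95 in WT UVA and 8.50 in WT sham on number 2 arrays. On number 1 arrays Cdh6 read 10.79 to 10.98, so that the 2 ranges were well apart, with the WT arrays of number 2 lowest. Itga8, whose product pairs with the beta 1 subunit and binds nephronectin, read 9.10 in KO UVA, 9.24 in KO sham, 8.46 in WT UVA and 8.48 in WT sham on number 2 arrays, against 10.65 to 11.14 on number 1 arrays.

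Mcam, which encodes the melanoma cell adhesion molecule CD146, went the other way. On number 2 arrays Mcam read 11.69 in KO UVA, 11.74 in KO sham, 12.22 in WT UVA and 12.13 in WT sham. On number 1 arrays it read 9.93 in KO UVA, 10.25 in KO sham, 9.65 in WT UVA and 10.04 in WT sham. The mean difference was 1.98, or 3.94-fold higher in number 2, and the arrays of the numbers did not overlap. Cdh19, a cadherin of the neural crest lineage that gives rise to Schwann cells and melanocytes, was higher in number 2 by 1.58, L1cam, a homophilic receptor first known from neurons, by 1.35 and Cdh3, which encodes P-cadherin, by 1.11. Cdh1, which encodes E-cadherin, read 8.34 to 8.60 on number 2 arrays and 7.69 to 7.99 on number 1 arrays, a mean difference of 0.64, against 0.05 on its further, dimmer probe set. Beside these genes, all 14 melanocyte markers were higher in number 2 (median difference 1.12, 8 of them by over 1), and 13 of 14 fibroblast markers were lower (median -1.56, 11 of them by over 1). Their part in the adhesion genes' difference was not tested.

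**Figure D2:**
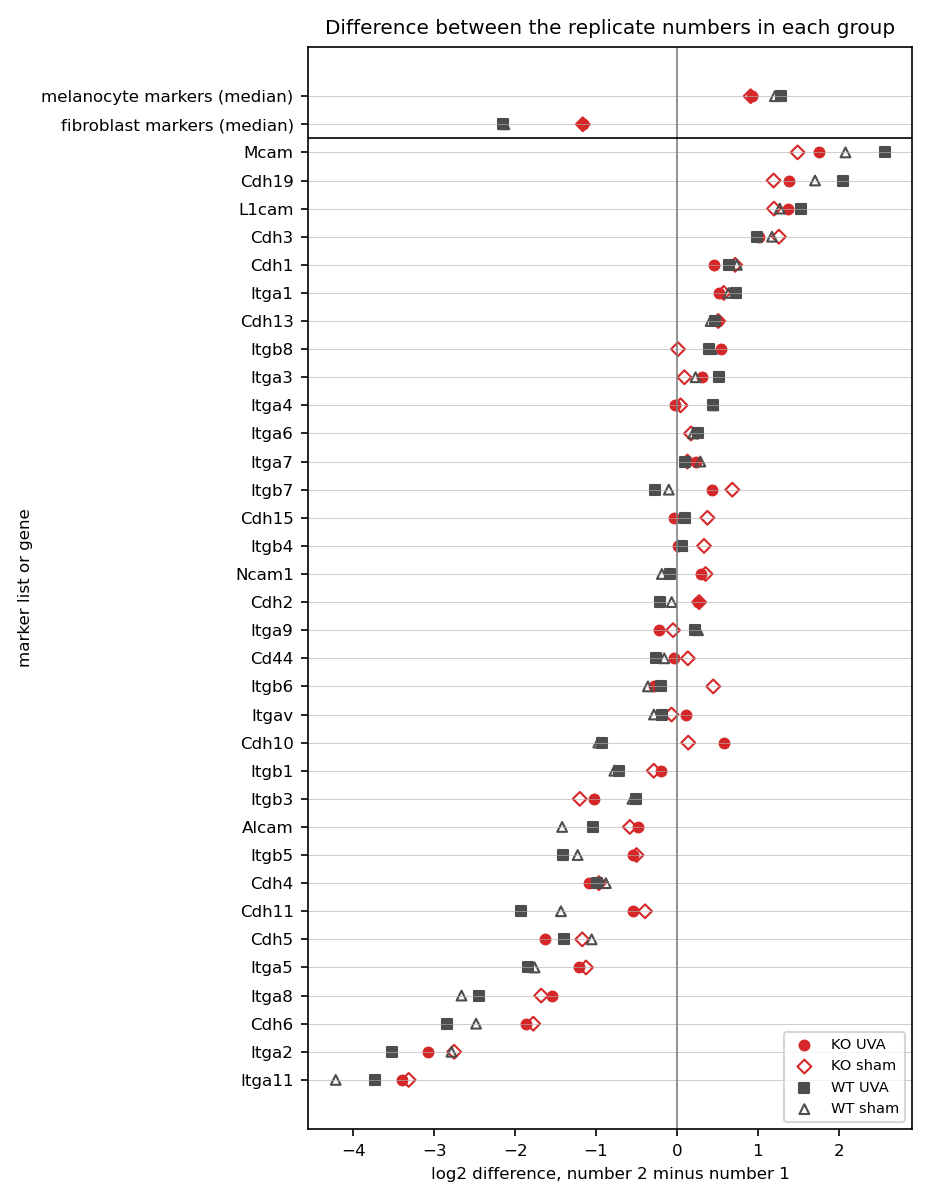
Difference in log2 intensity between number 2 and number 1 in each of the 4 groups (symbols), for the medians of the melanocyte and fibroblast marker lists (top) and for each adhesion gene, sorted by its mean. Mcam, Cdh19, L1cam and Cdh3 lie on the side of the melanocyte markers, and Itga11, Itga2, Cdh6, Itga8, Itga5, Cdh5 and Cdh11 on that of the fibroblast markers.

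Promoter windows are shown for the genes with the largest difference between the numbers in each direction, Itga11 and Mcam, and for Cdh6, the cadherin with the largest difference. Each runs from 250 bases before to 50 bases after the annotated start of the gene in RefSeq, build GRCm38.p6, 5′ to 3′ on the gene's strand. Of the 34 measured genes, 21 matched an entry in that table. Capitals mark matches, on either strand, to 6 short motifs: CATGTG (the E-box type bound by MITF), CACGTG (a palindromic E-box), ACAAAG (SOX factors), TGANTCA (AP-1), GGAATG (TEAD) and GGGCGG (the GC box). Itga11 lies at chr9:62677605-62677904 on the plus strand, Cdh6 at chr15:13173626-13173925 on the minus strand and Mcam at chr9:44134408-44134707 on the plus strand.
Itga11: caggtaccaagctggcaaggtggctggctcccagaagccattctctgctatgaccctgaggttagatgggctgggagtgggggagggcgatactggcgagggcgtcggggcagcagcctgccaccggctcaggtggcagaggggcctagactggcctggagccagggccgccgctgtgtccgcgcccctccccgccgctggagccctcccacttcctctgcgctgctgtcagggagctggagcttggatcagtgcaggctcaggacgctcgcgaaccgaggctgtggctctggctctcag
Cdh6: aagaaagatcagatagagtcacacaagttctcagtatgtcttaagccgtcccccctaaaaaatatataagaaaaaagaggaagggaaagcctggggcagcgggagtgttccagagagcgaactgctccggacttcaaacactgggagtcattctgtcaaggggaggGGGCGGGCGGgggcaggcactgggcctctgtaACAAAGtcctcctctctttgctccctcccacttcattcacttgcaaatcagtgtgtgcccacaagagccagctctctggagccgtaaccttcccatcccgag
Mcam: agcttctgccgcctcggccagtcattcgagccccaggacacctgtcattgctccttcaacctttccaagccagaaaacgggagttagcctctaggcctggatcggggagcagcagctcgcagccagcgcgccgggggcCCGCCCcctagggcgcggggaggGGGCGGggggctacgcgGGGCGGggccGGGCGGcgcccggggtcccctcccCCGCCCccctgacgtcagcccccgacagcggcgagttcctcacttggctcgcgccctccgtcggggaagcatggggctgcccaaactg
The Mcam window held 5 GC box matches and no other motif of the 6. The Cdh6 window held 2 GC box matches that share bases, and 1 SOX match. In the Itga11 window none of the 6 motifs was found, which says only that these letters are not in it. Over all 32851 promoter windows, GGGCGG was found in 35.7%, ACAAAG in 18.7%, GGAATG in 14.7%, CATGTG in 14.2%, TGANTCA in 7.81% and CACGTG in 7.15%. Of the 24 windows of adhesion genes, 15 held GGGCGG (62.5%), 6 CATGTG (25%), 3 ACAAAG (12.5%), 2 each GGAATG and TGANTCA (8.33%) and 1 CACGTG (4.17%). A match describes the letters and is not a binding site.

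The comparison of KO with WT asks how the adhesion genes differ between the Cre-carrying cultures and those without Cre. The cadherins Cdh13 and Cdh19 were higher in KO in both replicate numbers and under both treatments, and the collagen receptor subunit Itga1 was lower in all 4 matched pairs of arrays. Cdh11, Cdh6, Itga5 and Itgb5 were higher in KO mainly in number 2. No adhesion gene was called: averaged over treatments, limma called 0 of the 34, against 0.0316% of all genes (7 genes). At an unadjusted p under 0.05, 8 adhesion genes were higher in KO and 1 was lower, against 4.93% and 3.95% of all genes. Without the block, limma called 0 adhesion genes and had 0 at an unadjusted p under 0.05, against 2.33% of all genes. With the UVA and sham arrays of each genotype and number averaged first, limma also called 0 of all genes. In that averaged fit, Cdh13 and Cdh19, both higher in KO, were the only adhesion genes at an unadjusted p under 0.05. The larger counts of 8 and 1 came from the fit that takes the UVA and sham arrays of a genotype and number as separate. How many of all genes reached that unadjusted p in the averaged fit was not computed.

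Of the 34 genes, 27 had a positive KO minus WT difference, as had 45.8% of all genes, with a median of 0.12, against -0.01 for all genes. In number 2 the median was 0.24 (25 of 34 positive), and in number 1 it was 0.01 (19 of 34 positive). The averaged median was 0.06 without the WT sham array of number 2 and 0.18 without that of number 1. Beside these, fibroblast markers in KO minus WT had a median of 1.12 in number 2 and -0.05 in number 1 (13 of 14 positive on average). Melanocyte markers differed by -0.34 in number 2 and 0.01 in number 1 (12 of 14 negative on average). The part of either in the adhesion genes' difference was not tested. Adhesion genes were higher in KO in all 4 matched pairs in 6 cases (Itga2, Cdh5, Cdh11, Cdh19, Cdh13 and L1cam) and lower in 1 (Itga1), against 7.65% and 7.78% of all genes. For no adhesion gene did all 4 KO arrays lie above, or all below, all 4 WT arrays, against 0.866% and 0.942% of all genes.

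**Figure D3:**
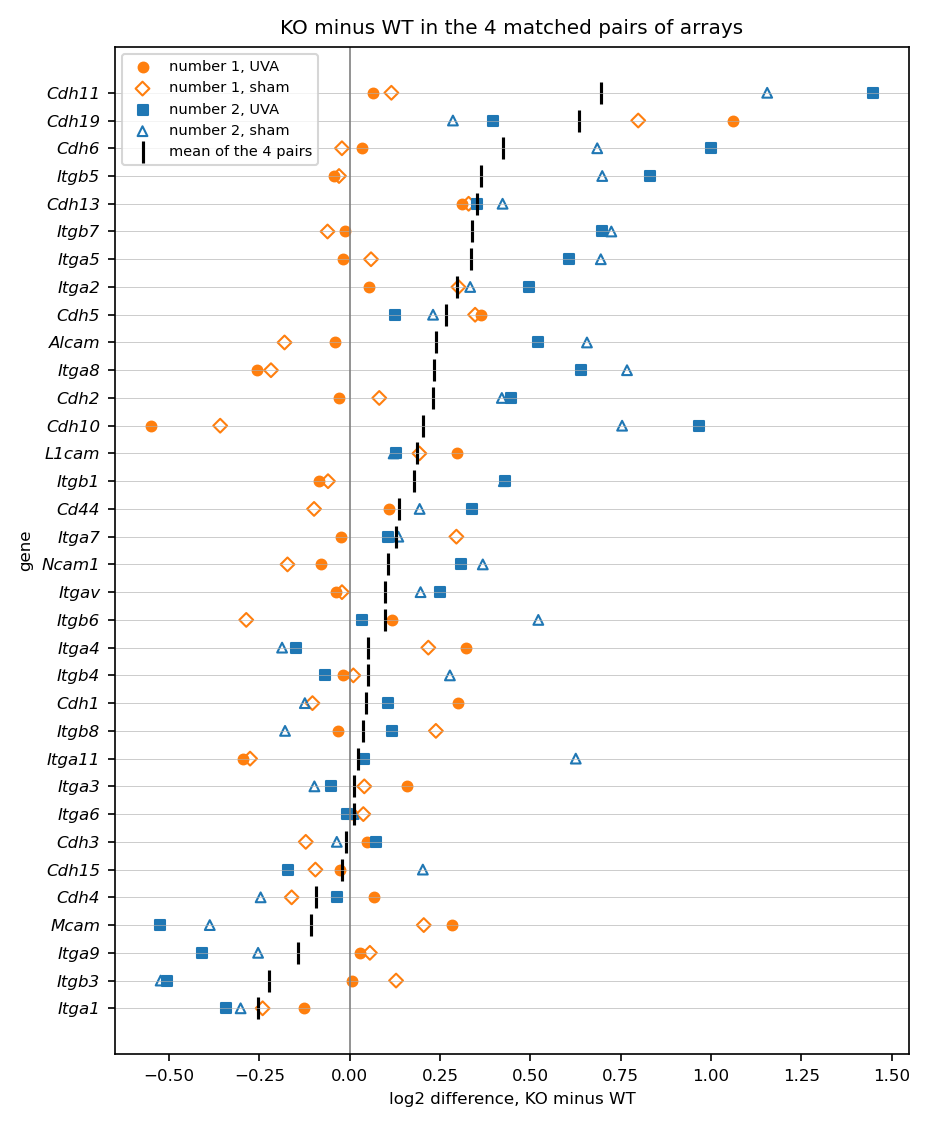
KO minus WT difference in log2 intensity of each adhesion gene in the 4 matched pairs of arrays (number 1 and 2, UVA and sham; black bars are the means), sorted by the mean. Cdh11 and Cdh19 have the largest means (0.70 and 0.64). For Cdh11 the number 2 pairs lie far to the right of the number 1 pairs, for Cdh19 the reverse, and for Cdh13 all 4 pairs lie close together.

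Among the cadherins, Cdh13 had the smallest p. It encodes T-cadherin, which is anchored to the membrane by lipid, lacks the cytoplasmic tail of other cadherins and binds adiponectin. Cdh13 read 8.71 (UVA) and 8.98 (sham) in KO of number 1, against 8.40 (UVA) and 8.65 (sham) in WT of number 1. The number 2 values of Cdh13 were 9.22 (UVA) and 9.49 (sham) in KO, against 8.87 (UVA) and 9.07 (sham) in WT. KO was thus higher in every pair, by 0.31 to 0.42, although the KO arrays of number 1 overlapped the WT arrays of number 2. The difference was 0.35 (SE 0.06, adjusted p = 0.297), a ratio of 1.28, with a 95% interval of 0.21 to 0.50. With the UVA and sham arrays averaged first, the SE was 0.10. Beside it, fibroblast markers differed by -0.05 in number 1, where Cdh13 differed by 0.32, and by 1.12 in number 2, where Cdh13 differed by 0.39. The part of these markers in the Cdh13 difference was not tested.

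Cdh19 read 9.82 (UVA) and 9.79 (sham) in KO of number 1, against 8.76 (UVA) and 8.99 (sham) in WT of number 1. In number 2 it read 11.21 (UVA) and 10.99 (sham) in KO, against 10.81 (UVA) and 10.70 (sham) in WT. KO was higher in every pair, and the gap was wider in number 1 (0.93) than in number 2 (0.34). The averaged difference was 0.64 (SE 0.13, adjusted p = 0.356), or 1.55-fold. Markers of Schwann cells, which also use Cdh19, had a median difference of 0.19 in number 1 and 0.21 in number 2, with 6 of 7 positive on average. Of these 7 measured markers, Ngfr, the low-affinity nerve growth factor receptor, read 8.80 (UVA) and 9.36 (sham) in KO of number 1, against 7.62 and 8.16 in WT. In number 2 Ngfr read 9.27 (UVA) and 9.62 (sham) in KO, against 8.93 (UVA) and 9.54 (sham) in WT. The average differences of the 7 markers ranged from -0.02 to 0.97. Of them 3 were higher in KO in all 4 pairs and 0 were lower in all 4, against 7.65% and 7.78% of all genes. For 0 of them did all 4 KO arrays lie above all 4 WT arrays, against 0.866% of all genes. Their part in the Cdh19 difference was not tested.

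Cdh11, which encodes the mesenchymal cadherin OB-cadherin, read 11.47 (UVA) and 11.63 (sham) in KO of number 1, against 11.40 (UVA) and 11.52 (sham) in WT of number 1. The number 2 values of Cdh11 were 10.93 (UVA) and 11.24 (sham) in KO, against 9.48 (UVA) and 10.08 (sham) in WT. The genotypes were close in number 1 (difference 0.09) and far apart in number 2 (1.302), where the WT arrays were lowest. The averaged difference was 0.70 (SE 0.24, adjusted p = 0.537). It ranged from 0.41, without the WT UVA array of number 2, to 0.98, without the WT UVA array of number 1. Cdh6 showed the same division, at 0.01 in number 1 and 0.84 in number 2 with an average of 0.42 (SE 0.18, adjusted p = 0.561), and so did the fibroblast marker median (-0.05 and 1.12). The part of the fibroblast markers in the differences of Cdh11 and Cdh6 was not tested.

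Cdh2, which encodes N-cadherin, differed by 0.03 in number 1 and 0.43 in number 2, with an average of 0.23 (SE 0.09, adjusted p = 0.548). It read 11.83 (UVA) and 11.97 (sham) in KO of number 1, against 11.86 (UVA) and 11.89 (sham) in WT of number 1. In number 2 the values were 12.10 (UVA) and 12.24 (sham) in KO, against 11.65 (UVA) and 11.82 (sham) in WT. A dimmer second probe set for Cdh2 gave an average difference of 0.22, close to the 0.23 of the one used. Cdh5, which encodes the VE-cadherin of endothelium, read 9.39 (UVA) and 9.21 (sham) in KO of number 1, against 9.03 (UVA) and 8.87 (sham) in WT of number 1. The number 2 values of Cdh5 were 7.76 (UVA) and 8.04 (sham) in KO, against 7.64 (UVA) and 7.81 (sham) in WT. KO was higher in all 4 pairs, with an average of 0.27 (SE 0.10, adjusted p = 0.548). The 9 endothelial markers had a median difference of 0.00, with a range of -0.37 to 0.32. Of them 3 were higher in KO in all 4 pairs and 0 were lower in all 4, against 7.65% and 7.78% of all genes. Their part in the Cdh5 difference was not tested. Cdh1 and Cdh3, the cadherins through which melanocytes bind keratinocytes, differed by 0.05 and -0.01, Cdh4 (R-cadherin) by -0.09 (0.12 on its further probe set), Cdh15 (M-cadherin of muscle) by -0.02 and Cdh10 by 0.20. For the dim Cdh10 the numbers went opposite ways, with -0.45 in number 1 and 0.86 in number 2.

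Among the collagen-binding integrin subunits, Itga1 was lower in KO. It read 7.91 (UVA) and 7.98 (sham) in KO of number 1, against 8.03 (UVA) and 8.22 (sham) in WT of number 1. The number 2 values of Itga1 were 8.42 (UVA) and 8.56 (sham) in KO, against 8.76 (UVA) and 8.86 (sham) in WT. KO was lower in each pair, with differences of -0.34 to -0.13 and an average of -0.25 (SE 0.07, adjusted p = 0.477). Its neighbour in function, Itga2, read 10.72 (UVA) and 10.73 (sham) in KO of number 1, against 10.66 (UVA) and 10.43 (sham) in WT of number 1. In number 2 Itga2 read 7.64 (UVA) and 7.98 (sham) in KO, against 7.14 (UVA) and 7.64 (sham) in WT. KO was higher in each pair, but by only 0.05 in the UVA pair of number 1, and the average was 0.30 (SE 0.13, adjusted p = 0.574). Itga11 differed by -0.29 in number 1 and 0.33 in number 2, which gave an average of 0.02.

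Of the subunits that bind the RGD motif of fibronectin and related proteins, Itga5, a subunit of the main fibronectin receptor, read 13.19 (UVA) and 13.18 (sham) in KO of number 1, against 13.21 (UVA) and 13.12 (sham) in WT of number 1. In number 2 it read 11.98 (UVA) and 12.05 (sham) in KO, against 11.37 (UVA) and 11.36 (sham) in WT. The genotypes matched to within 0.06 in number 1, and KO was higher by 0.61 to 0.69 in number 2, with an average of 0.34 (SE 0.13, adjusted p = 0.548). Itga8 differed by -0.24 in number 1 and 0.70 in number 2, and Itgav, the partner of several beta subunits, by -0.03 and 0.22. Of the beta subunits, Itgb1, the partner of most alpha subunits, differed by -0.07 in number 1 and 0.43 in number 2, Itgb5 by -0.04 and 0.76 and the dim Itgb7 by -0.04 and 0.71. Itgb3, in contrast, differed by 0.07 in number 1 and -0.51 in number 2. The laminin receptor subunits Itga3, Itga6 and Itga7 differed by 0.01, 0.01 and 0.13 on average, Itga4 and Itga9, which bind VCAM1 among others, by 0.05 and -0.14, and Itgb4, the partner of Itga6 in hemidesmosomes, by 0.05. Itgb6 and Itgb8 differed by 0.10 and 0.04.

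L1cam was the immunoglobulin superfamily member with the smallest p. It read 9.42 (UVA) and 9.57 (sham) in KO of number 1, against 9.12 (UVA) and 9.38 (sham) in WT of number 1. In number 2 it read 10.79 (UVA) and 10.77 (sham) in KO, against 10.66 (UVA) and 10.65 (sham) in WT. KO was higher in each pair, by 0.12 to 0.30, with an average of 0.19 (SE 0.07, adjusted p = 0.548). Mcam went opposite ways, at 0.24 in number 1 and -0.46 in number 2, as did Alcam, a receptor for CD6 that also binds itself (-0.11 and 0.59), and Ncam1, the neural cell adhesion molecule (-0.13 and 0.34). Cd44, the hyaluronan receptor, differed by 0.01 in number 1 and 0.27 in number 2.

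The genotypes were also compared within each treatment. After UVA, 26 of 34 adhesion genes were higher in KO, as were 44.5% of all genes (median 0.14, all genes -0.02), with 2 higher and 0 lower at an unadjusted p under 0.05, against 2.07% and 2.11% of all genes. After sham, 26 were higher, as were 49.1% of all genes (median 0.15, all genes 0.00), with 2 higher and 1 lower, against 3.17% and 2.38%. limma called 0 adhesion genes in either comparison, against 0% of all genes. Cdh13 differed by 0.33 after UVA and 0.38 after sham, Cdh19 by 0.73 and 0.54, and Itga1 by -0.23 and -0.27. The medians were lower without an array of number 2: that after UVA was 0.06 without the KO UVA array of number 2 and 0.03 without the WT UVA array of number 2. That after sham was 0.28 without the KO sham array of number 1, 0.05 without that of number 2 and 0.02 without the WT sham array of number 2. Within number 1 alone the median was 0.0055 after UVA and -0.0057 after sham, against 0.13 and 0.25 within number 2.

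The comparison of UVA with sham asks what the adhesion genes do 6 h after the exposure. Most were slightly lower after UVA: 28 of the 34 had a negative UVA minus sham difference averaged over genotypes, as had 48.9% of all genes, with a median of -0.09, against 0.00 for all genes. Ncam1, Cdh13, Itga6 and Itga9 were lower in all 4 matched pairs with the smallest p-values. limma called 0 of the 34 (0.0135% of all genes, 3 genes), and 4 were lower and 0 higher at an unadjusted p under 0.05, against 2.66% and 3.88% of all genes. Without the block it called 0, with 1 at an unadjusted p under 0.05, against 1.81% of all genes. With every genotype-and-number combination entered as a block, it called 1 adhesion gene, Ncam1, against 0.437% of all genes (97 genes). That fit compares the UVA and sham arrays of a genotype and number directly, but the labels do not say that they came from 1 culture. At an unadjusted p under 0.05 it also had Itga4, Itga6, Itga8, Itga9, Itgav, Cdh2, Cdh6, Cdh10, Cdh11, Cdh13 and Alcam, all lower after UVA. The share of all genes at that unadjusted p was not computed for that fit.

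Of the 34 genes, 15 were lower after UVA in all 4 matched pairs and 0 were higher in all 4, against 9.08% and 10.6% of all genes. The 15 were Itga1, Itga4, Itga6, Itga8, Itga9, Itgav, Itgb1, Itgb5, Cdh2, Cdh6, Cdh10, Cdh11, Cdh13, Alcam and Ncam1. A further, dimmer probe set of Itgav differed by 0.06 on average, against -0.10 for the one used. For none did all 4 UVA arrays lie below all 4 sham arrays (0.6% of all genes), and for none above them (1.23%). The averaged median was -0.05 without the WT UVA array of number 2 or without the WT sham array of number 1. The number of negative differences was 28 in number 2 (median -0.14) and 22 in number 1 (median -0.10). Fibroblast markers were also lower after UVA in 13 of 14 cases, with a median of -0.11, and the melanocyte marker median was 0.00; their part in the adhesion genes' difference was not tested.

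**Figure D4:**
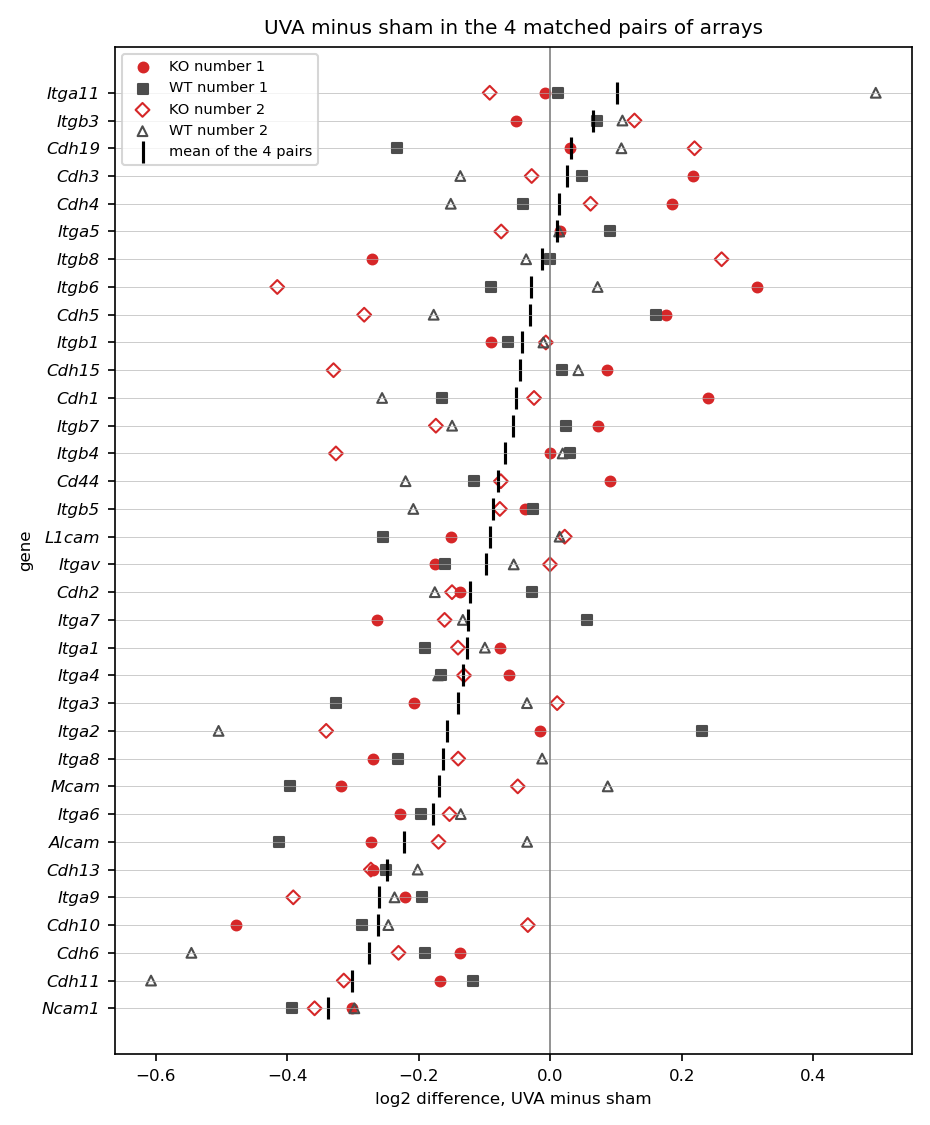
UVA minus sham difference in log2 intensity of each adhesion gene in the 4 matched pairs of arrays (KO and WT, number 1 and 2; black bars are the means), sorted by the mean. For Ncam1 and Cdh13, near the bottom, all 4 pairs lie close together and left of 0, while Itga11 at the top rests on the WT pair of number 2 (0.50).

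Ncam1 read 11.88 and 12.18 in KO UVA, against 12.18 and 12.54 in KO sham, numbers 1 and 2 in that order. In WT it read 11.96 and 11.87 in WT UVA, against 12.36 and 12.17 in WT sham. Every UVA array was lower than its sham partner, with differences of -0.39 to -0.30, while KO UVA of number 2, at 12.18, was level with the lower sham arrays. The difference was -0.34 (SE 0.10, adjusted p = 0.708), or 0.791 of the sham level, in the fit with the number as a block. With the genotype-and-number combination as block the SE was 0.04 and the adjusted p 0.0131. Leaving out any 1 of the 4 combinations from that fit gave differences of -0.36 to -0.31 and adjusted p values of 0.527 to 0.694, with 0 genes called in all and 1 residual degree of freedom.

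Cdh13 read 8.71 and 9.22 in KO UVA, against 8.98 and 9.49 in KO sham, numbers 1 and 2 in that order. In WT it read 8.40 and 8.87 in WT UVA, against 8.65 and 9.07 in WT sham. UVA was lower in each pair, with differences of -0.27 to -0.20, an average of -0.25 (SE 0.06, adjusted p = 0.671) and a 95% interval of -0.40 to -0.10. Itga6, the laminin receptor subunit that pairs with the beta 1 or beta 4 subunit, read 10.57 and 10.82 in KO UVA, against 10.80 and 10.98 in KO sham, numbers 1 and 2 in that order. In WT Itga6 read 10.57 and 10.83 in WT UVA, against 10.76 and 10.97 in WT sham. It was lower after UVA in each pair, with differences of -0.23 to -0.14 and an average of -0.18 (SE 0.05, adjusted p = 0.705). Itga9, a receptor subunit for tenascin C and VCAM1, read 8.82 and 8.60 in KO UVA, against 9.04 and 8.99 in KO sham, numbers 1 and 2 in that order. In WT Itga9 read 8.79 and 9.01 in WT UVA, against 8.99 and 9.25 in WT sham. The differences of the 4 pairs were -0.39 to -0.19, with an average of -0.26 (SE 0.10, adjusted p = 0.721).

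Itga7, a laminin receptor subunit known from muscle, was lower after UVA in 3 of 4 pairs and differed by -0.13 (SE 0.07, adjusted p = 0.829) on average. It read 9.003 and 9.24 in KO UVA, against 9.27 and 9.40 in KO sham, numbers 1 and 2 in that order. In WT it read 9.03 and 9.13 in WT UVA, against 8.97 and 9.26 in WT sham. Itga1 was lower in all 4, with an average of -0.13 (SE 0.07, adjusted p = 0.837). The mesenchymal cadherins Cdh11 and Cdh6 were lower by larger amounts in WT of number 2 (-0.61 and -0.55) than in the other pairs (-0.31 to -0.12 and -0.23 to -0.14), with averages of -0.30 (SE 0.24, adjusted p = 0.888) and -0.28 (SE 0.18, adjusted p = 0.864). With the genotype-and-number combination as block, Cdh11 and Cdh6 each had an SE of 0.07 (adjusted p = 0.145 and 0.140). Among genes with positive averages were Itga11 (0.10), Itgb3 (0.06), Cdh19 (0.03) and Cdh3 (0.03). Cdh1 differed by -0.05 and Cd44 by -0.08.

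**Figure D5:**
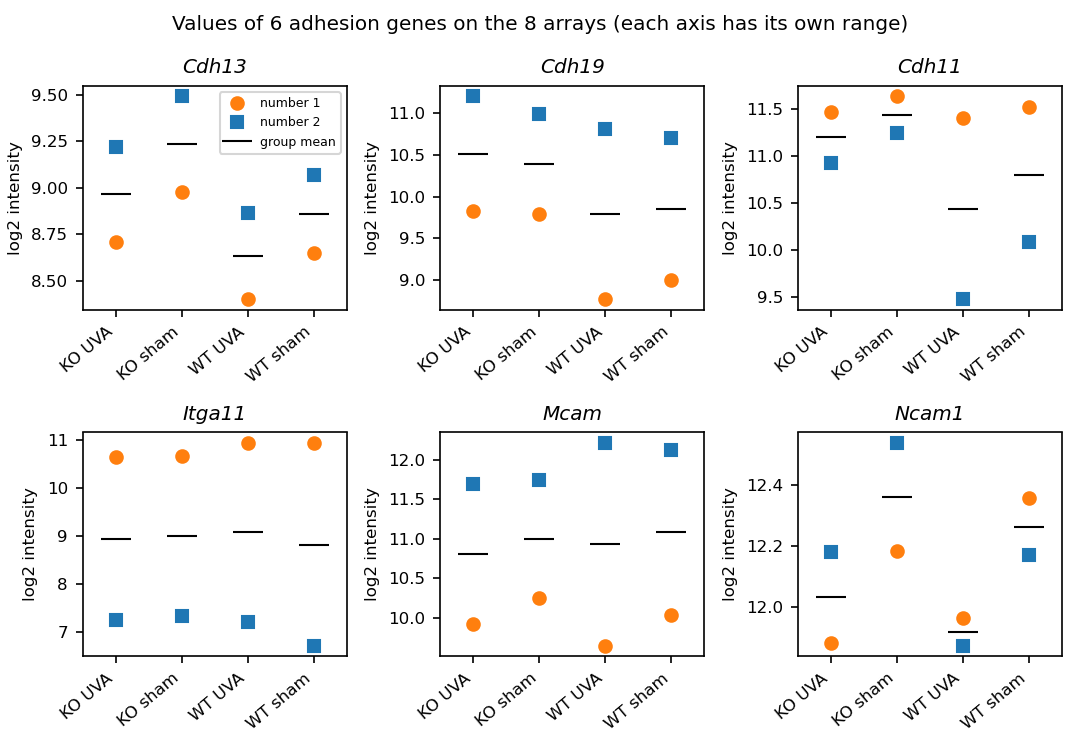
Log2 intensity of Cdh13, Cdh19, Cdh11, Itga11, Mcam and Ncam1 on the 8 arrays, by group, with number 1 as circles, number 2 as squares and the group mean as a bar. Cdh13 and Ncam1 are lower after UVA than after sham within each genotype and number, Cdh13 and Cdh19 are higher in KO than in WT within each number, and Itga11 and Mcam differ mainly between the numbers.

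By genotype, 28 of 34 adhesion genes were lower after UVA in KO, as were 50.8% of all genes (median -0.10, all genes 0.00), with 3 lower and 0 higher at an unadjusted p under 0.05, against 1.87% and 2.15% of all genes. In WT 29 were lower, as were 46.7% of all genes (median -0.12, all genes 0.01), with 2 lower and 0 higher, against 1.56% and 2.38%. limma called 0 of the 34 in either, against 0.00902% of all genes in KO (2 genes) and 0.00451% in WT (1 gene). Ncam1 differed by -0.33 in KO and -0.35 in WT, and Cdh13 by -0.27 in KO and -0.23 in WT. The median in WT was -0.01 without the WT UVA array of number 2, and in KO it was 0.00 without the KO sham array of number 2 and -0.01 without the KO UVA array of number 1. Leaving out the KO sham array of number 1 gave -0.21 in KO.

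Whether the response to UVA differed between the genotypes was tested by the interaction, the UVA minus sham difference in KO minus that in WT. limma called 0 adhesion genes and had 0 at an unadjusted p under 0.05, against 0% and 2.06% of all genes, with a median interaction of 0.01 over the 34. Cdh1 had the smallest p. It read 7.99 and 8.45 in KO UVA, against 7.75 and 8.48 in KO sham, numbers 1 and 2 in that order. In WT it read 7.69 and 8.34 in WT UVA, against 7.86 and 8.60 in WT sham. The UVA minus sham difference was 0.24 and -0.02 in KO of number 1 and 2, against -0.16 and -0.26 in WT, an interaction of 0.32 (SE 0.15, adjusted p = 1) with a 95% interval of -0.05 to 0.68. For Cdh4 the interaction was 0.22 (SE 0.14, adjusted p = 1), for Itga7 -0.17 (SE 0.13, adjusted p = 1) and for Cd44 0.18 (SE 0.15, adjusted p = 1). Cdh4 read 8.48 and 7.39 in KO UVA, against 8.29 and 7.33 in KO sham, numbers 1 and 2 in that order. In WT Cdh4 read 8.41 and 7.43 in WT UVA, against 8.46 and 7.58 in WT sham. Cd44 read 11.00 and 10.97 in KO UVA, against 10.91 and 11.04 in KO sham, numbers 1 and 2 in that order. In WT Cd44 read 10.89 and 10.63 in WT UVA, against 11.01 and 10.85 in WT sham. For both genes the UVA arrays overlapped the sham arrays. The median interaction moved between -0.13 and 0.10 when single arrays were left out.

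The partners of these receptors were described from lists of general knowledge. Of 19 measured adaptors of integrins and focal adhesions, limma called 0 in KO against WT (median 0.02, 14 positive, against 45.8% of all genes), with 1 higher and 0 lower at an unadjusted p under 0.05, against 4.93% and 3.95% of all genes. That gene was Tns1 (tensin 1), at -0.05 in number 1 and 1.32 in number 2. Next were Zyx (zyxin, average 0.20) and Actn1 (alpha-actinin 1, average 0.36). Zyx was at 0.002 in number 1 and 0.41 in number 2, and Actn1 at -0.06 and 0.78. After UVA, 16 of the 19 had a negative difference, against 48.9% of all genes (median -0.08), with 0 called and 3 lower at an unadjusted p under 0.05, against 2.66% of all genes: Tns3 (-0.27), Vcl (vinculin, which couples talin to actin, -0.24) and Tln2 (talin 2, -0.22), all with adjusted p values from 0.716 to 0.747. Of 17 catenins and junction genes, 0 were called in either comparison, with 1 higher in KO at an unadjusted p under 0.05, against 4.93% of all genes, and 0 after UVA, against 3.88% higher and 2.66% lower. Nectin1, an adhesion receptor of adherens junctions, differed by 0.35 in KO on average, with 0.05 in number 1 and 0.65 in number 2. Ctnnb1 (beta-catenin) differed by -0.11 (-0.01 and -0.21) and Pkp4 by -0.30 (0.06 and -0.66). The UVA median of the 17 genes was -0.01. Nectin4 was at 0.22 (0.44 in number 1 and 0.001 in number 2), Ctnnal1 at -0.12 (-0.03 and -0.22) and Pkp1 at 0.11 (-0.03 and 0.25).

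Of 21 measured ligands of integrins and Cd44, 0 were called in KO against WT (median 0.07, 13 positive), and 5 were higher and 0 lower at an unadjusted p under 0.05, against 4.93% and 3.95% of all genes. Has1, a hyaluronan synthase, was at 0.51 (0.30 in number 1 and 0.73 in number 2), the laminin chain gene Lama2 at 0.47 (0.18 and 0.75) and the laminin chain gene Lamc3 at 0.39 (0.44 and 0.33), with adjusted p values of 0.432, 0.477 and 0.519. After UVA 18 of the 21 were lower, against 48.9% of all genes (median -0.11), with 0 called and 2 lower at an unadjusted p under 0.05, against 2.66% of all genes. Those were Lama2 and Lamc1. Lama2 differed by -0.41, the laminin gamma 1 chain gene Lamc1 by -0.14 and Ccn2, a matricellular protein gene, by -0.40.

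Of 34 further integrin, cadherin and adhesion receptor genes, 0 were called in KO against WT, with 9 higher and 1 lower at an unadjusted p under 0.05, against 4.93% and 3.95% of all genes. Cadm4, a homophilic and heterophilic receptor of myelinating Schwann cells, read 8.13 (UVA) and 8.65 (sham) in KO of number 1, against 7.65 (UVA) and 7.45 (sham) in WT of number 1. In number 2 it read 8.49 (UVA) and 8.79 (sham) in KO, against 8.02 (UVA) and 7.99 (sham) in WT. For Cadm4 all 4 KO arrays lay above all 4 WT arrays, with a difference of 0.74 (SE 0.08, adjusted p = 0.102). In this list of 34, that held for 2 genes, and for 1 gene all KO arrays lay below, against 0.866% and 0.942% of all genes. Chl1, a close relative of L1cam, was higher by 0.73 in number 1 and 1.91 in number 2 (average 1.32, SE 0.27, adjusted p = 0.345). Bcam, a receptor for the laminin alpha 5 chain, was higher by 0.36 and 0.38 (average 0.37, SE 0.07, adjusted p = 0.297). After UVA this list had 0 called, with 1 higher and 1 lower at an unadjusted p under 0.05, against 3.88% and 2.66% of all genes: Itgae, the partner of the beta 7 subunit (0.23), and Cadm1 (-0.27). Sdc3, a syndecan, differed by -0.14.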

How the data were processed

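Gene expression was measured on 8 1-colour Affymetrix whole-transcript arrays, 2 per group. The authors deposited 1 intensity per probe set and array, made by RMA (background correction, quantile normalization and probe summary) in Affymetrix Expression Console 1.3.1.187 per the submitters' processing notes; the values are linear and whole, between 7 and 22585, and array medians were 110 to 115. RMA makes array distributions alike, so a shift of most genes cannot be seen. No annotation version or genome build is stated in the labels.

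Here log2 of each deposited intensity was taken. Of 41345 probe sets, 23521 had 1 gene symbol in the annotation table, 1814 several and 16010 none. Only those with 1 symbol were used, and the one with the highest mean represented a gene (1082 genes had more than 1). Symbols of 21994 of the 22180 genes, all 34 adhesion genes among them, were matched to RefSeq by gene number. limma 3.58.1 (R 4.3.3) fitted the 4 group means with the replicate number as a block (3 residual degrees of freedom), moderated variances with a trend, and Benjamini-Hochberg adjustment over 22180 genes in each of 7 comparisons. The limma step was run on simulated data with large planted changes, little noise and a number effect alike in all groups. That run checks the code and does not measure what could be detected in these data. Arrays were treated as paired by number, since deviations from group means correlated between same-numbered arrays at 0.80 to 0.92 in all 6 pairs of groups. The labels do not define the number, so p-values rest on a spread between these arrays. With the number as a block, that spread pools how the genotype difference and the UVA difference vary between the numbers. A p-value thus measures neither variation alone. For KO against WT the SE of Cdh13 was 0.06, against 0.10 with treatments averaged first. For UVA against sham the SE of Ncam1 was 0.10, against 0.04 with each genotype and number as a block.

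The adhesion genes, the lists and the tests were chosen with earlier results of these data known. Genes named are all members, and for each partner list the 3 with the smallest p. With 2 arrays per group, precision is limited by their number. Alternatives were no block, a block for each genotype and number, averaging of treatments, an offset of 16, the filter on dim genes, the mean of all probe sets, repeated quantile normalization, median centring, no variance trend, leaving out each array, and, chosen after seeing the data, each number alone.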

Additional observations from a re-analysis of the deposited data

How the results depend on the processing

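The limma counts of called adhesion genes stayed at 0 in the 7 comparisons without the replicate block, with an offset of 16, without dim genes, with the mean of all probe sets, after repeated quantile normalization, after median centring, without the variance trend and without each array. One exception was found: with each genotype and number as a block, 1 adhesion gene (Ncam1, adjusted p = 0.0131) and 97 genes in all were called for UVA against sham; that block leaves 2 residual degrees of freedom. Of the values of single named genes, 319 kept their direction and side of the threshold, 1 crossed it (Ncam1) and 0 changed direction. In this balanced design the block, the averaging of treatments and the variance trend cannot change a difference, so the direction was fixed in those settings. These genes were picked for small p-values, and none was called in the main fit. Medians moved more. Within number 1 the KO minus WT median after UVA was 0.0055 and that after sham -0.0057. Within number 2 the UVA minus sham median was -0.14 on average, -0.14 in KO and -0.13 in WT. The interaction median (0.0065) was -0.0042 without dim genes, 0.011 with the mean of all probe sets, 0.017 after repeated quantile normalization, 0.020 after median centring and 0.0012 within number 1. Without single arrays the medians ranged from 0.06 to 0.18 for KO minus WT, from 0.032 to 0.203 after UVA and from 0.015 to 0.28 after sham. For UVA minus sham they ranged from -0.12 to -0.046 on average, from -0.21 to 0.0030 in KO and from -0.16 to -0.013 in WT, and for the interaction from -0.13 to 0.10. The cause of these moves was not tested. Signals near background limit what can be seen for the 4 dim genes.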

Other observations

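Several adhesion genes are neighbours in the mouse genome, by RefSeq order in GRCm38.p6. Itga1 and Itga2 are adjacent on chromosome 13, and on average number 2 minus number 1 was 0.62 for Itga1 and -3.04 for Itga2. KO minus WT was negative for Itga1 (-0.25) and positive for Itga2 (0.30). Cdh1 and Cdh3 are adjacent on chromosome 8, and number 2 minus number 1 was 0.64 for Cdh1 and 1.11 for Cdh3. Cdh5 and Cdh11, adjacent on the same chromosome, had -1.31 and -1.07. Cdh6 and Cdh10 on chromosome 15, with 1 gene between them, had -2.24 and -0.29. These are values without a test.

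Of the adhesion genes, 4 had a further probe set. That of Cdh2 gave 0.22 for KO minus WT, -0.21 for UVA minus sham and -0.03 for number 2 minus number 1, against 0.23, -0.12 and 0.07 for the one used. That of Itgav, which was far dimmer (mean 5.91 against 12.24), gave 0.10 for KO minus WT, as did the one used, but differed from it in sign for UVA minus sham (0.06 against -0.10) and for number 2 minus number 1 (0.08 against -0.10). The further probe set of Cdh4 differed in sign from the one used, with 0.12 against -0.09 for KO minus WT and 0.17 against -0.98 for number 2 minus number 1. That of Cdh1, which was dimmer (mean 5.02 against 8.15), gave 0.05 for number 2 minus number 1, against 0.64 for the one used, and 0.07 for UVA minus sham, against -0.05.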
